A study of Homo sapiens with 6 samples.

Results

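The genes described here are sensors of nucleic acids, the adaptors they signal through, the kinase below them and the enzymes that restrain them. They were taken by gene symbol from a list of 10 names, DDX58, IFIH1, DHX58, TLR3, MB21D1, MAVS, TMEM173, TBK1, TREX1 and ADAR. Of the 34036 genes listed with counts, 9 were among these names, and counts of TREX1 were not analysed here. MB21D1 had no counts, and the remaining 8 were all among the 14476 genes with enough counts to be tested.

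RNA was sequenced from HepG2 cells, an established hepatocellular carcinoma line, 48 h after transfection with siRNA by RNAiMAX. siDGk cells received a siGENOME pool against DGUOK, which encodes the mitochondrial deoxyguanosine kinase, and siCON cells received a non-targeting siRNA, so cells of both groups were transfected with double-stranded RNA. There were 3 libraries per group, and the treatment label of all 6 names the control siRNA, so the groups were taken from the sample titles. Total counts were 19065684, 18915508 and 10527216 in siCON and 18613138, 15978314 and 21334876 in siDGk libraries. siDGk replicate 1 stood apart in the number of genes with a count, 21057 against 16205 to 17583 in the other 5 libraries.

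RIG-I-like receptors are cytosolic helicases that bind double-stranded RNA and signal through MAVS on the mitochondrial surface. cGAS binds cytosolic DNA and makes a cyclic dinucleotide that activates STING, and TLR3 binds double-stranded RNA in endosomes. These routes meet at TBK1, which phosphorylates IRF3 and leads to interferon transcription.

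DGUOK was measured first, as a check of the labels. It stood at 54.7, 53.5 and 48.5 CPM (counts scaled by library size and edgeR's TMM factors) in siCON and at 9.12, 10.48 and 6.69 CPM in siDGk libraries. The groups did not overlap, and the log2 fold change was −2.58 (SE 0.19, adjusted p = 1.4e-08 from edgeR's quasi-likelihood test). The label of a hepatocyte-derived line was also checked: the summed level of 8 hepatocyte markers was 52860, 47260 and 46120 CPM in siCON and 27380, 23640 and 22250 CPM in siDGk libraries. ALB had the highest mean CPM in siCON and SERPINA1 in siDGk libraries, and 7 of the 8 markers were lower in siDGk cells by the criterion used for all genes below, SERPINA1 being the exception. In bulk RNA of a cell line, fewer cells expressing a gene and less of its RNA per cell cannot be told apart. The part of this shift in the results below was not tested.

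DDX58 encodes RIG-I, the helicase that binds RNA with a 5′ triphosphate end. It lies at chr9:32455302-32526208 on the minus strand of GRCh38. Promoter stretches of 7 of the 10 members were matched in RefSeq (GRCh38.p14), each running from 250 bases before to 50 bases after a start site, with no entry used for DHX58, TMEM173 and MB21D1. They were searched on both strands for 3 motifs: the interferon-stimulated response element core GAAANNGAAA, the STAT motif TTCNNNGAA and the NF-kappaB motif GGGNNTTTCC. These were present in 3.57%, 7.66% and 1.91% of 34943 promoters of the same length. The stretches of the double-stranded RNA sensors that held a match are shown, 5′ to 3′, because these receptors are themselves known interferon targets; capitals mark the NF-kappaB motif in DDX58 (chr9:32526147-32526446, minus strand) and the interferon element in IFIH1 (chr2:162318635-162318934, minus strand) and TLR3 (chr4:186068906-186069205, plus strand).
DDX58: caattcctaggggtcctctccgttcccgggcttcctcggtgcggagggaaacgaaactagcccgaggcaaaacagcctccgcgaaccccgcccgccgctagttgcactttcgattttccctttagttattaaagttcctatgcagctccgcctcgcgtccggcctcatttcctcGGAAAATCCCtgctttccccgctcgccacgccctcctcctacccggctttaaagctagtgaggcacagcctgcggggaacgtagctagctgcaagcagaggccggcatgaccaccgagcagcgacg
IFIH1: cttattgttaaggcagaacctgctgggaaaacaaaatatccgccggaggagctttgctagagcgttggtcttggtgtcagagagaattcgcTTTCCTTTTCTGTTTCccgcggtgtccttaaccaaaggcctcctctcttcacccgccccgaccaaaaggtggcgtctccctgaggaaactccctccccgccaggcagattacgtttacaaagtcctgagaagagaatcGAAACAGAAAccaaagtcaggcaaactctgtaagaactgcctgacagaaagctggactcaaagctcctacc
TLR3: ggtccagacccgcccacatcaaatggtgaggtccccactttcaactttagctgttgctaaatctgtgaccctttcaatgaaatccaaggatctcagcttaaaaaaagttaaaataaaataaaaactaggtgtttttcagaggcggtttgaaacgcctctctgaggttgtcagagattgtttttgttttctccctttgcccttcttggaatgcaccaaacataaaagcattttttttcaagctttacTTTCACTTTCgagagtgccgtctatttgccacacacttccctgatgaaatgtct
The interferon element occurred 3 times in the IFIH1 stretch, with a pair of overlapping matches, and once in that of TLR3. The NF-kappaB motif was found in the stretches of DDX58 and IFIH1, and the STAT motif in that of TLR3. None of the 3 motifs was found in the stretches of MAVS, TBK1, TREX1 or ADAR, which says only that these letters are not in those windows. The same limit holds for the motifs not found in DDX58, whose stretch holds gaaacgaaa, a closer spacing than the searched interferon element allows.

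A gene was called when its adjusted p from edgeR, taken over all 14476 genes tested, was under 0.05 and its absolute log2 fold change was over 0.5. By this rule 0 of the 8 members tested were called, against 14.0% of all genes tested, 7.14% higher and 6.90% lower in siDGk cells. By the adjusted p alone 0 of the 8 passed, against 19.6% of all genes. At an unadjusted p under 0.05 there were 2, DDX58 and TMEM173, against 30.5% of all genes tested, and DESeq2 also called 0. The median log2 fold change of the 8 was −0.07, and that of all genes tested was 0.01.

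DDX58 was measured at 17.3, 10.96 and 17.9 CPM in siCON and at 21.0, 25.9 and 24.5 CPM in siDGk libraries. Every siDGk library was above every siCON library, and DDX58 was the only 1 of the 8 members whose groups did not overlap, against 35.8% of all genes tested. The means were 15.4 ± 3.86 and 23.8 ± 2.50 CPM (SD, n = 3 each), and the log2 fold change was 0.63 (SE 0.22, 95% interval 0.17 to 1.09). The adjusted p of 0.0505 from edgeR lay just over the threshold. Its side of the threshold depended on the settings. Of 18 alternatives DDX58 was called in 9, with adjusted p from 0.0288 to 0.18: in 5 of 8 planned settings with all libraries, in 4 of 4 added after the first result was seen, and in 0 of the 6 that left out 1 library. DDX58 is therefore given here as not called. In the newer annotation 43.2% of its exonic bases are shared with another gene model on the same locus, so reads there could be assigned differently.

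IFIH1 encodes MDA5, which binds long double-stranded RNA. It was measured at 10.6, 14.5 and 9.77 CPM in siCON and at 7.01, 12.2 and 6.14 CPM in siDGk libraries. siDGk replicate 2 lay among the siCON values, so the groups overlapped (log2 fold change −0.47, SE 0.31, adjusted p = 0.349 from edgeR). The log2 fold change was −0.82 without siDGk replicate 2, −0.27 without siCON replicate 2 and −0.28 without siDGk replicate 3, not called in any of these. DHX58 encodes LGP2, a helicase of the same family without the signalling domains. Its level was 8.96, 5.53 and 8.82 CPM in siCON and 6.46, 3.25 and 8.11 CPM in siDGk libraries. Its groups overlapped as well, and the 95% interval of the log2 fold change, −1.18 to 0.42, included differences in either direction. The log2 fold change of DHX58 was −0.38 with all libraries, and −0.24 with shrunken fold changes in DESeq2. Leaving out siDGk replicate 3 gave −0.67, leaving out siDGk replicate 2 gave −0.09, and leaving out siCON replicate 1 gave −0.25.

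**Figure D1:**
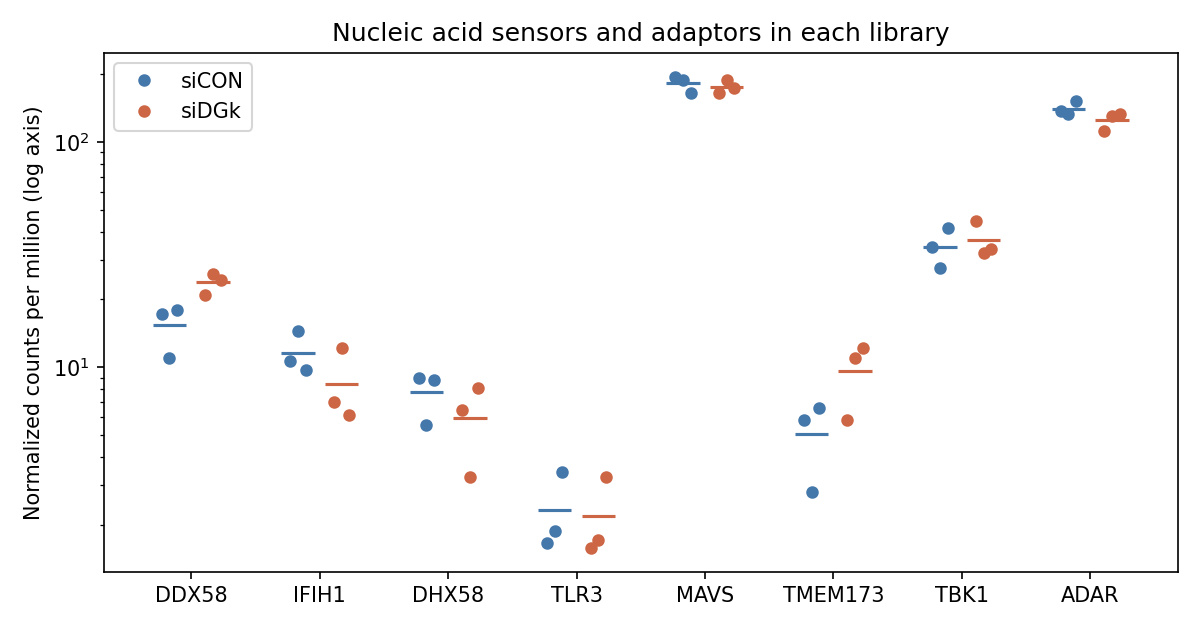
Level of each member with counts in each library, as TMM-normalized CPM on a log axis. Points are libraries and short lines are group means; only DDX58 has groups that do not overlap, and MB21D1, at 0 in all 6 libraries, is not drawn.

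The share of each receptor among the summed DDX58, IFIH1 and DHX58 transcripts does not depend on how libraries are scaled. This comparison was chosen after the counts were seen and is a description with no test. Per kilobase of canonical transcript, DDX58 made up 36.8%, 27.7% and 38.7% of the sum in siCON and 50.5%, 54.5% and 52.2% in siDGk libraries. The groups did not overlap in this share. The sum itself was 10.2, 8.54 and 10.0 CPM per kilobase in siCON and 8.99, 10.2 and 10.1 CPM per kilobase in siDGk libraries, and these ranges overlapped. The ratio of DDX58 to IFIH1 had a geometric mean of 1.02 in siCON and 2.27 in siDGk libraries, whereas the ratio of IFIH1 to DHX58 was 1.09 and 1.05 with overlapping groups. The size of these shares and ratios depends on the length used. Over the union of all annotated exons the means in siCON libraries were 1.49 CPM per kilobase for DDX58 and 2.22 for IFIH1. In siDGk libraries they were 2.3 and 1.62.

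**Figure D2:**
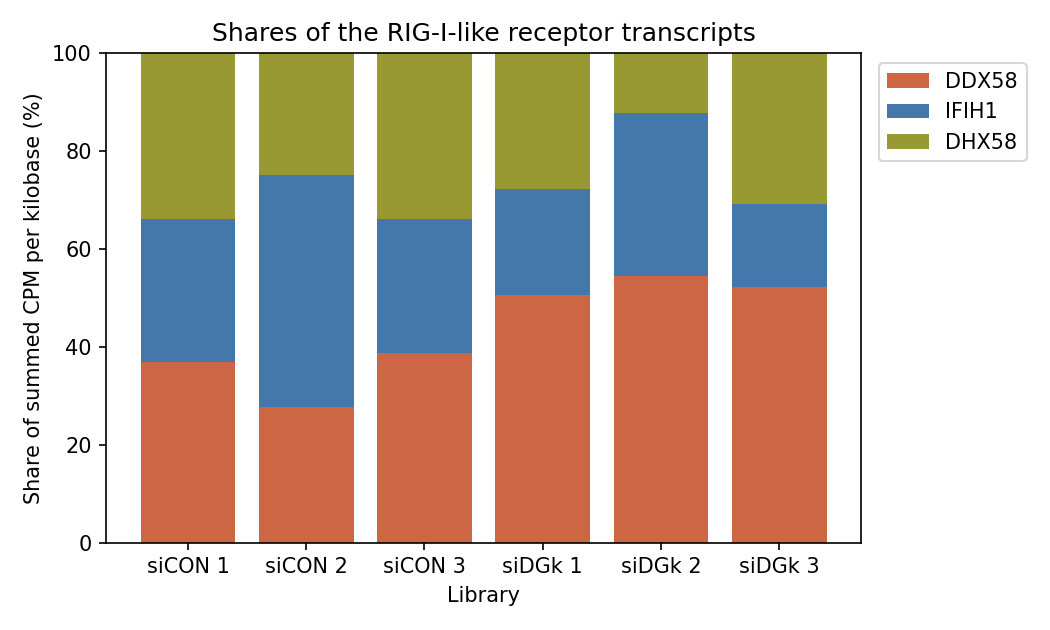
Shares of DDX58, IFIH1 and DHX58 in their summed CPM per kilobase of canonical transcript, in percent, with 1 bar per library. DDX58 runs from 27.7% to 38.7% in siCON and from 50.5% to 54.5% in siDGk libraries.

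TLR3, the endosomal receptor, was near the lower end of what could be tested. Its level was 1.66, 1.88 and 3.45 CPM in siCON and 1.58, 1.72 and 3.25 CPM in siDGk libraries. The groups overlapped almost fully, and the 95% interval of the log2 fold change was wide, −1.59 to 1.42. MB21D1 encodes cGAS, the cytosolic DNA sensor. It had 0 counts in all 6 libraries, which allows at most 3 counts per library, or 0.161, 0.161 and 0.287 CPM in siCON and 0.163, 0.184 and 0.137 CPM in siDGk libraries (counting error only). MB21D1 was thus not detectable at this depth in either group.

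Among the adaptors, MAVS, which the RIG-I-like receptors share, was measured at 195, 187 and 165 CPM in siCON and at 165, 188 and 174 CPM in siDGk libraries. The groups overlapped, and the 95% interval of the log2 fold change ran from −0.25 to 0.13. TMEM173 encodes STING, the adaptor below cGAS. It was measured at 5.85, 2.79 and 6.61 CPM in siCON and at 5.81, 10.97 and 12.2 CPM in siDGk libraries. siDGk replicates 2 and 3 were above all siCON libraries, whereas siDGk replicate 1 lay among them. The log2 fold change of TMEM173 was 0.94 (SE 0.39, 95% interval 0.12 to 1.76), and its adjusted p was 0.106 from edgeR. With shrunken fold changes in DESeq2 it was 0.58, not called.

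TBK1, the kinase, was measured at 34.0, 27.7 and 41.3 CPM in siCON and at 44.6, 32 and 33.6 CPM in siDGk libraries, with overlapping groups. ADAR edits adenosines in double-stranded RNA and so limits its recognition by MDA5. It was measured at 138, 132 and 151 CPM in siCON and at 111, 130 and 133 CPM in siDGk libraries. The ADAR groups overlapped narrowly, and the 95% interval of the log2 fold change was −0.38 to 0.04. The estimate, −0.17, was −0.10 without siCON replicate 3 or without siDGk replicate 1.

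**Figure D3:**
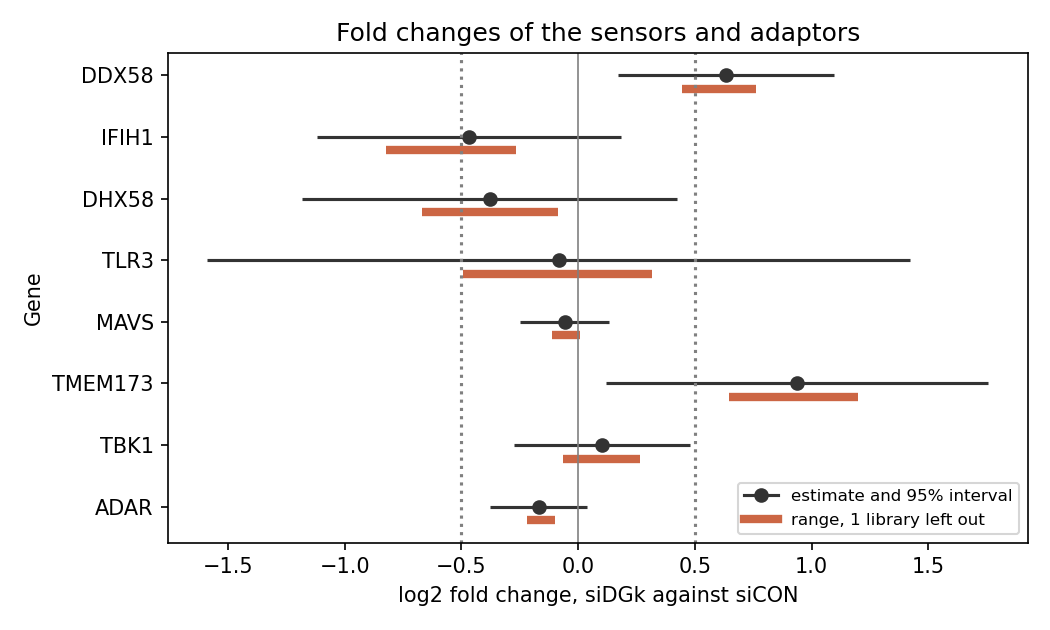
Log2 fold change of each member tested, siDGk against siCON. Black points and lines are edgeR estimates with 95% intervals, orange bars the range over 6 fits that each left out 1 library, and dotted lines the fold change threshold; the intervals of DDX58 and TMEM173 lie above 0.

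Levels were compared between genes per kilobase of canonical transcript. In siCON libraries the order was ADAR (21.2 ± 1.47 CPM per kilobase, SD, n = 3), MAVS (15.5 ± 1.33), TBK1 (11.4 ± 2.26), DDX58 (3.33 ± 0.83), IFIH1 (3.24 ± 0.70), DHX58 (3.00 ± 0.75), TMEM173 (2.34 ± 0.93), TLR3 (0.388 ± 0.162) and MB21D1 at 0. DDX58, IFIH1, DHX58 and TMEM173 overlapped with their neighbours in this order, and the other neighbours did not. In siDGk libraries DDX58 kept the fourth place at 5.14 ± 0.54 CPM per kilobase, and TMEM173 stood next at 4.46 ± 1.57. The order depends on the length used: in siCON libraries, over the union of all annotated exons, MAVS came before ADAR, and DDX58 came after IFIH1 and DHX58.

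The 5 genes whose profile over the 6 libraries was most like that of DDX58, out of 9223 compared, were GYG1, ALKBH8, TMEM19, DCUN1D1 and DNAJB11. The root mean square difference of their centred log2 CPM from that of DDX58 was 0.101 for GYG1 and 0.115 for DNAJB11, and its median over the genes compared was 0.455. These 5 were picked for a profile that holds the group difference of DDX58, so a higher level in siDGk cells follows from that choice. DCUN1D1 and DNAJB11 were called higher, and the other 3 were not. The share called higher among all genes tested was 7.14%, but genes picked in this way cannot be weighed against it. With 1 library left out the call of DCUN1D1 was lost in 4 of 6 fits (log2 fold change 0.39 to 0.63), and that of DNAJB11 in 1, without siCON replicate 2 (0.42). DCUN1D1 was also not called with shrunken fold changes in DESeq2 (0.48).

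The 6 lists of partner genes held 111 genes, of which 90 were tested. In all 10 of them passed the rule, with 6 rising and 4 falling in siDGk cells, or 11.1% against 14.0% of all genes. Of the 23 RNA sensing partners tested, 2 were called, both higher. ZNFX1, a helicase that binds double-stranded RNA, was at 28.0, 28.4 and 37.8 CPM in siCON and at 45.4, 60.7 and 42.2 CPM in siDGk libraries, without overlap. RIOK3, a kinase that acts on MDA5, had a log2 fold change of 0.60. DDX3X, with the highest mean CPM of the list, did not pass (log2 fold change −0.13, and −0.05 without siCON replicate 1). RNF135 had at most 3 counts in every library. ZNFX1 had a log2 fold change of 0.66. Without siCON replicate 1 it was 0.60, with an adjusted p of 0.0511, and without siDGk replicate 2 it was 0.49, under the threshold, with an adjusted p of 0.0769, both from edgeR.

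The rule was met by 0 of the 18 DNA sensing partners tested, in edgeR as in DESeq2, against 14.0% of all genes, and in edgeR 6 lay under 0.05 before adjustment, close to the 30.5% of all genes. By the adjusted p alone 3 passed, against 19.6% of all genes, and all 3 were lower in siDGk cells. TMED10 (log2 fold change −0.49, adjusted p = 0.000321 from edgeR), ENPP1, which degrades the cyclic dinucleotide made by cGAS (log2 fold change −0.44, adjusted p = 0.00434 from edgeR), and XRCC6, a subunit of the Ku complex (log2 fold change −0.36, adjusted p = 0.0027 from edgeR), passed the adjusted p but not the fold change threshold. TMED10 was called in 3 of the 6 fits that left out 1 library (log2 fold change −0.51 in each), where the library was siDGk replicate 3 or siCON replicate 2 or 3. SURF4, which retrieves STING to the endoplasmic reticulum, had the highest mean CPM of the list, with a log2 fold change of 0.03, although XRCC5 was above it in 3 of the 6 libraries, and AIM2 was at 0 in all 6 libraries. IFI16, another DNA sensor, had 0 counts in every siCON library and 25, 94 and 0 in siDGk libraries, and did not pass the count filter. Of the 9 endosomal receptor partners tested, 3 were called, all lower, against 6.90% of all genes called lower. These were HSP90B1, the chaperone of Toll-like receptors, and the lysosomal proteases LGMN and CTSL. CTSB, another lysosomal protease of the list, was at 890, 993 and 934 CPM in siCON and at 1324, 1277 and 1342 CPM in siDGk libraries, and passed the adjusted p (4.69e-05 from edgeR) but not the fold change threshold (log2 fold change 0.49, higher in siDGk cells). CTSB was called with no count filter and with TMM before the filter (0.50 in both), without siCON replicate 2 (0.54) and without siDGk replicate 2 (0.51). HSP90B1 was at 3019, 2879 and 3055 CPM in siCON and at 1802, 1810 and 1633 CPM in siDGk libraries (log2 fold change −0.77, adjusted p = 1.38e-07 from edgeR). TLR7, TLR8, TLR9 and TICAM2 had at most 3 counts in every library. LGMN fell under the fold change threshold without siCON replicate 3 (−0.44) or siDGk replicate 2 (−0.43), and with shrunken fold changes in DESeq2 (−0.49).

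Of the 17 kinases and transcription factors tested, IKBKE, the kinase closest to TBK1, and TAX1BP1, an adaptor that limits this signalling, were called higher, and NFKB1 was called lower. These 3 made up 17.6% of the list, against 14.0% of all genes called. IKBKE was at 5.63, 8.54 and 9.49 CPM in siCON and at 12.1, 14.1 and 15.8 CPM in siDGk libraries, without overlap (log2 fold change 0.83, adjusted p = 0.0404 from edgeR). Its call was lost in 5 of the 6 fits that left out 1 library, with log2 fold changes from 0.65 to 0.99. NFKB1, at −0.50, lay at the threshold, and its call was lost in 5 of those 6 fits and in 7 of 11 other settings. TAX1BP1 fell just under the fold change threshold without siDGk replicate 1 (0.496). Of the 15 genes that clear the cell's own nucleic acids, 0 met the rule in edgeR or in DESeq2, against 14.0% of all genes, and in edgeR 1 lay under 0.05 before adjustment, against 30.5% of all genes. RNASET2, with the highest mean CPM, had a log2 fold change of 0.31 (adjusted p = 0.0142 from edgeR), and DNASE2 one of −0.37 (adjusted p = 0.17 from edgeR).

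Of the interferons listed, IFNA1, IFNA2, IFNB1, IFNL2, IFNL3, IFNK and IFNE were not analysed here, and IFNL1 had too few counts to be tested. Of the 8 first targets tested, 2 were called, OAS1 and ISG15, both higher, against 7.14% of all genes called higher. The log2 fold changes of the other 6 ran from −1.16 (SE 1.625) to 1.78 (SE 1.687). Both ends came from genes with at most 46 counts in any library. OAS1, which makes the activator of RNase L, was at 56.5, 59.7 and 52.2 CPM in siCON and at 139, 138 and 134 CPM in siDGk libraries. The groups were far apart, with a log2 fold change of 1.28 (adjusted p = 3.7e-08 from edgeR). ISG15, a ubiquitin-like modifier, was at 40.2, 39.6 and 44.8 CPM in siCON and at 55.3, 89.9 and 57.2 CPM in siDGk libraries. Without siDGk replicate 2 its log2 fold change was 0.44, under the threshold. CXCL10 and CXCL11 had at most 3 counts in every library.

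**Figure D4:**
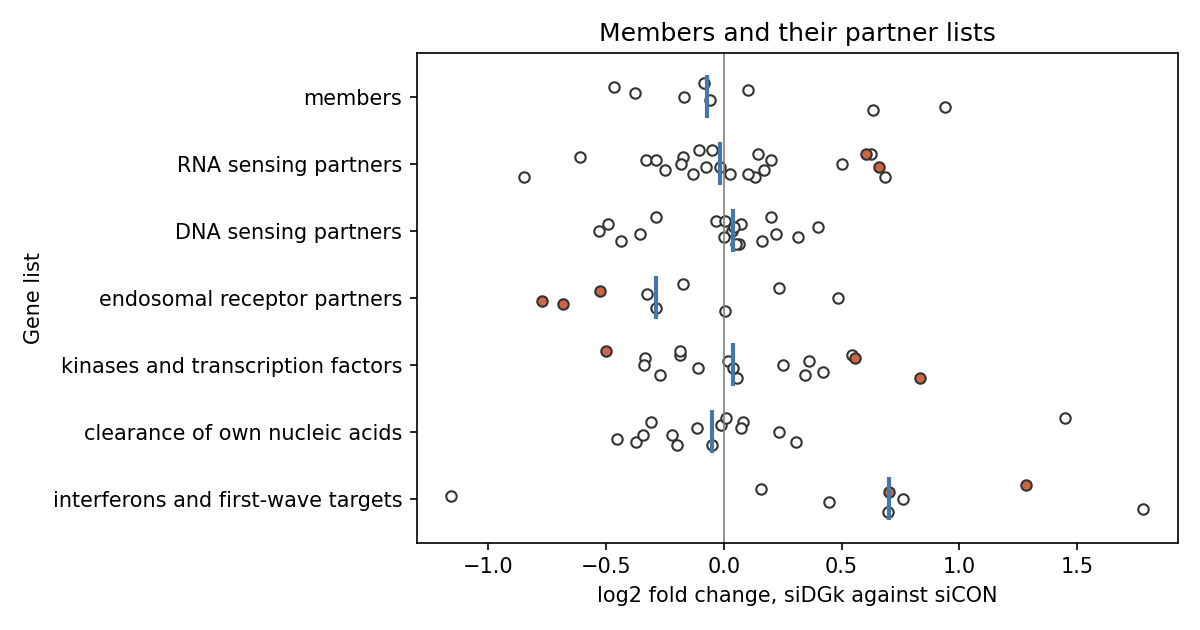
Log2 fold change, siDGk against siCON, of the members and of 6 lists of partner genes. Each circle is 1 gene tested, filled where it was called, and blue lines are list medians, which run from −0.29 for endosomal receptor partners to 0.70 for interferons and first-wave targets.

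Markers of other cell types were also read in each library. The summed level of PECAM1, VWF and CDH5, endothelial markers, was 1.66, 1.40 and 2.30 CPM in siCON and 3.80, 56.0 and 4.03 CPM in siDGk libraries, so siDGk replicate 2 stood apart. Of these 3, 0 were called by edgeR or DESeq2, and 2 lay under 0.05 before adjustment in edgeR. VWF was called with the replicate number as a block (log2 fold change 3.35), PECAM1 with no count filter (3.46) and without siDGk replicate 1 (3.99), and CDH5 with no count filter (2.84), with dispersion estimated within the fit (3.17) and without siCON replicate 3, the siCON library that held all of its siCON counts. A fit that was not robust called VWF and PECAM1. Without siDGk replicate 2 none of the 3 was called. Their log2 fold changes were then 0.18 for VWF, 1.53 for PECAM1 and 1.40 for CDH5, against 4.02, 3.45 and 2.84 with all libraries. With shrunken fold changes in DESeq2 the values were 0.10, 0.22 and 0.11 in the same order. COL1A1, a fibroblast marker, and CD79A, a B cell marker, were called higher in siDGk cells, at 20.3, 20.6 and 17.4 CPM for COL1A1 in siDGk libraries. The summed level of the 5 myeloid markers was 1620, 1714 and 1713 CPM in siCON and 1910, 1747 and 1760 CPM in siDGk libraries, nearly all of it from LYZ. Of the 4 tested, LYZ, PTPRC, CD14 and CD68, 0 met the rule in edgeR or in DESeq2, and before adjustment 0 lay under 0.05 in edgeR. PTPRC was at 0.483, 2.95 and 0.192 CPM in siCON and at 2.01, 7.91 and 2.66 CPM in siDGk libraries, with overlapping groups. It was called with the replicate number as a block or without siCON replicate 2 (log2 fold change 2.23 and 3.55, against 1.75 with all libraries and no block). Without siDGk replicate 2 the log2 fold change of PTPRC was 0.92, and with shrunken fold changes in DESeq2 0.50, not called in either. CD14 had a log2 fold change of −1.49, which was −0.92 without siDGk replicate 2 and −2.07 without siDGk replicate 3. With shrunken fold changes in DESeq2 the value of CD14 was −0.31, and CD14 was not called in any of these. CSF1R had 16, 0 and 11 counts in siCON and 0 in every siDGk library, and was not tested. LILRA4, a marker of plasmacytoid dendritic cells, was at 0 in all 6 libraries, and IL3RA had at most 3 counts in each. CLEC4C, of the same list, had 0 counts in every siCON library and 9, 3 and 18 in siDGk libraries, too few to be tested. The summed level of the T cell markers CD3E, CD3D and CD2 was 2.31, 8.54 and 5.46 CPM in siCON and 12.0, 20.3 and 8.16 CPM in siDGk libraries, and 0 of the 2 tested were called by edgeR or DESeq2, with 1, CD3D, under 0.05 before adjustment in edgeR. CD3D, whose groups did not overlap (log2 fold change 1.13), was called with no count filter, with the replicate number as a block, with dispersion estimated within the fit and without siCON replicate 2 (1.69). Without siCON replicate 1 the log2 fold change of CD3D was 0.73, and with shrunken fold changes in DESeq2 0.64, not called in either. CD79A was at 0, 0 and 0.671 CPM in siCON and at 4.24, 9.87 and 9.58 CPM in siDGk libraries, and MS4A1 was not analysed here. The log2 fold change of CD79A was 5.48 in edgeR and 0.24, not called, with shrunken fold changes in DESeq2. The value in edgeR rests on 7 counts in siCON replicate 3; without that library the siCON counts were 0, and the fitted 10.22 is no measure of size. That of COL1A1 was 4.03 in edgeR and 2.55 with shrunken fold changes in DESeq2. For COL1A1, COL3A1 and PDGFRB together the summed level was 11.4, 15.1 and 10.4 CPM in siCON and 34.6, 42.7 and 21.5 CPM in siDGk libraries, although PDGFRB itself was called lower, a call lost in 5 of the 6 fits that left out 1 library (log2 fold change −1.16 to −0.81). The part of these genes in the results above was not tested.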

How the data were processed

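The authors deposited raw counts per gene. Their processing notes name STAR 2.6.1, featureCounts 1.6.5, Bowtie 1.1.2 and GRCh38. The default parameters of featureCounts, which do not use strand, were used with a minimum quality filter. Where genes overlap, reads could therefore not be assigned by strand. Genes were filtered with filterByExpr (minimum count 10), scaled by TMM and compared with the robust quasi-likelihood test of edgeR 4.0.16 in R 4.3.3, on condition alone, with Benjamini-Hochberg adjustment. Library sizes were taken over genes that passed the filter, and dispersion was estimated before the fit. The design did not specify these choices. They were kept as first written, and other choices, tried after DDX58 was seen to lie near the threshold, are given as alternatives. DESeq2 1.42.0 was another alternative. Levels per kilobase used canonical transcript lengths, found for 98.9% of genes with a count. The members and lists were chosen with earlier results of these data known. Named genes were DGUOK, the members, called partners (or the 2 with the smallest p), the partner of highest mean CPM in each list, partners with at most 3 counts in every library, the 5 profiles most like DDX58 and the markers, 1 of which is not reported here; CTSB, XRCC5, ENPP1, IFI16 and IFNL1 were named after their values were seen. The fitting code was tested on simulated data. A first criterion, on the share of changed genes recovered, was not met and was replaced after that result was seen by criteria on bias, sign and calibration. The share of false calls was above the nominal rate in that simulation, more so for DESeq2 than for edgeR. The series design describes the replicates of each group as biologically independent and the libraries as made and sequenced together.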

Additional observations from a re-analysis of the deposited data

How the results depend on the processing

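DGUOK was called lower in every setting tried (log2 fold change −2.73 to −2.42 with 1 library left out). Genes called ranged from 1704 to 1935 with 1 library left out and from 1979 to 2836 in the other settings. The number of members called moved from 0 to 1, always DDX58, with RLE size factors, upper-quartile normalization, no count filter, a mean CPM of at least 1 and the replicate block, and with 4 settings added after the first result was seen: library sizes over all genes (adjusted p = 0.0477 from edgeR), TMM before the filter (0.0445), dispersion estimated within the quasi-likelihood fit (0.0288) and a fit that was not robust (0.0489). It stayed 0 with DESeq2 and with any 1 library left out; adjusted p over all settings ran from 0.0288 to 0.18. Partners called were 17 with no fold change threshold, which lets smaller changes through, and 7 to 13 with 1 library left out.

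Same-numbered libraries did not deviate together (correlations 0.024, 0.0165 and −0.0023 across genes), so the replicate numbers give no pairing; with the replicate block 2078 genes, 1 member and 11 partners were called.

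Signs turned in some settings for 6 genes that were not called. With 1 library left out the log2 fold change ran from −0.112 to 0.00635 for MAVS, from −0.491 to 0.314 for TLR3, from −0.0638 to 0.263 for TBK1, from −0.0284 to 0.0623 for SURF4, from −0.0558 to 0.0553 for SERPINA1 and from −0.434 to 1.67 for CD3E. TLR3 was at 0.0775 with dispersion within the fit, and CD3E at −0.0150 with the replicate block. The cause was not tested. With no count filter the median log2 fold change of all genes was 0.14, over a larger number of genes of low count, and that of DDX58 was 0.65. TLR3 had 28 to 71 counts per library, which leaves its interval wide.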
